A study of Homo sapiens with 9 samples.

Results

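Nuclear receptors other than the NR4A family and the retinoid receptors RAR and RXR were followed across 3 conditions of human adrenocortical NCI-H295R cells. The members were chosen by name as genes of the nuclear receptor superfamily. Of 37 listed genes, 31 had a probe set assigned to their symbol alone and are described here, out of 18417 genes measured in this way. The other 6, which are NR0B1, NR1H2, NR1H4, NR1I2, HNF4A and NR2F2, are not analysed here.

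Nuclear receptors are transcription factors that bind DNA through zinc fingers and carry a pocket for a lipid-soluble ligand such as a steroid, thyroid hormone, fatty acid or oxysterol. Ligand binding exchanges corepressors for coactivators on the target genes, whereas the orphan members act without a known physiological ligand. In the adrenal cortex steroidogenic factor 1, encoded by NR5A1, drives the genes of steroid synthesis, and other members tie transcription to lipid supply and to the circadian clock.

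NCI-H295R is an adrenocortical carcinoma line and thus a model of 1 tumour, not of the normal gland. All cells were first grown for 24 h in growth medium. They were then kept for 48 h in growth medium (normal growth), in serum-free medium (starvation), or in serum-free medium with 10 mM metformin, a biguanide that inhibits mitochondrial complex I (starvation with metformin). The growth medium held serum, insulin, transferrin and selenium and the starvation medium lacked all of them, so their effects cannot be told apart. Starvation with metformin is called metformin in the comparisons below. Against normal growth it differs in the medium as well as in the drug, so that comparison cannot tell their effects apart. Each group had 3 arrays, lettered A, B and C, and total RNA was read on GeneChip Human Gene 1.0 ST arrays. The study's methods describe independent experiments and name only normal growth and starvation. In such bulk RNA, fewer cells of a type and less RNA per cell cannot be told apart. All values below are deposited log2 expression values, in which a difference of 1 is a doubling, and values of different genes are not set against each other because probe sets differ in brightness.

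The 250 bases before the outermost RefSeq start are shown for the 4 genes that passed the test in starvation against normal growth or in metformin against starvation. They are read 5′ to 3′ on the strand of the gene (GRCh38.p14). Capitals mark every match, on either strand, to 1 of 4 motifs. These were the E-box with the letters CACGTG, the CCAAT box, the GC box with the letters GGGCGG, and the core AGGTCA that many nuclear receptors recognise.
NR5A1, chr9:124507400-124507649, minus strand: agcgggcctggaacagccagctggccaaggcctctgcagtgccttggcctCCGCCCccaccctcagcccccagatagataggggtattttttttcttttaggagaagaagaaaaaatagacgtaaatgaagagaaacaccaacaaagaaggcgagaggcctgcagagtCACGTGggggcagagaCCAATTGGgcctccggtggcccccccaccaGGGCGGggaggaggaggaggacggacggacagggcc
PPARA, chr22:46150276-46150525, plus strand: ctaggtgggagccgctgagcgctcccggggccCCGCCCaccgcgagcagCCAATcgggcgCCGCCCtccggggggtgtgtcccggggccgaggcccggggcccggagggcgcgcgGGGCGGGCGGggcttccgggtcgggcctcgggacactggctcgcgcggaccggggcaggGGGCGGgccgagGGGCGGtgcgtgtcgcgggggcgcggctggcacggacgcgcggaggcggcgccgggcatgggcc
PPARG, chr3:12287118-12287367, plus strand: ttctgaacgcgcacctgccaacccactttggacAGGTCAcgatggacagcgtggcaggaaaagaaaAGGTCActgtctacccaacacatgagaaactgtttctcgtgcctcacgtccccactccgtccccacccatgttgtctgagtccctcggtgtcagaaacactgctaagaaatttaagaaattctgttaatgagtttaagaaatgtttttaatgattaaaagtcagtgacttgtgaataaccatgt
THRB, chr3:24495709-24495958, minus strand: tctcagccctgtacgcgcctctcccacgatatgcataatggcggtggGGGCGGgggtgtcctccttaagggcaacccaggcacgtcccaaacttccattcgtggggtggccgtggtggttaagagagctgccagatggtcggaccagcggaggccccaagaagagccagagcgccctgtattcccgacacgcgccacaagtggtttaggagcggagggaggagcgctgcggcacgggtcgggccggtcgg
In the NR5A1 window the E-box lay 82 to 77 bases before the start, 2 CCAAT matches on opposite strands overlapped between 66 and 59 bases before it, and GC boxes lay at 36 to 31 and at 200 to 195. The PPARA window, with 84.4% G and C, held 6 GC boxes, of which 2 overlapped, and 1 CCAAT. The PPARG window held only the core AGGTCA, at 217 to 212 and at 184 to 179 bases before the start, and had 44.8% G and C. The THRB window held 1 GC box, at 203 to 198. PPARG has 6 starts in the table, and PPARA and THRB have 2 each, so other starts of these genes are not shown. Of all 35116 promoter windows 6.34% held the E-box, 32% CCAAT, 42.6% the GC box and 12.1% AGGTCA. Among the 71 windows of the 27 measured members with any window, the shares were 7.04%, 39.4%, 46.5% and 14.1%. A match describes letters in a window and is not a binding site.

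Medians of the 9 arrays lay between 6.035 and 6.158. Starvation replicate B and metformin replicate A stood apart somewhat, with the lowest correlation of any pair of arrays, 0.984, between them. None of the 8 adrenocortical markers was below the median on every array, although MC2R was below it on all except metformin replicates A and B. Their summed linear level ran from 11920 to 12550 in normal growth, from 9970 to 10850 in starvation and from 9370 to 11750 with metformin, and 1 of them fell in starvation, 2 fell and 1 rose in metformin against starvation, and 3 fell and 1 rose in metformin against normal growth. Below the median on every array were 3 of 4 markers of the adrenal medulla, 5 of 7 of fibroblasts, 5 of 5 of endothelium, 4 of 5 of immune cells and 2 of 5 of epithelium. Of these markers outside the cortex, only EPCAM passed the test, with 0.57 more in metformin than in normal growth (adjusted p = 0.034), and the summed linear level of the 5 epithelial markers ran from 396.8 to 415.4 in normal growth, from 436.2 to 494.7 in starvation and from 477.4 to 502.7 with metformin. The summed level of the 7 fibroblast markers was 575.8 to 632.4 in normal growth, 458.9 to 462.4 in starvation and 481.4 to 508.9 with metformin. A sum weighs bright probe sets most. FAP read 8.09, 8.13 and 8.35 in normal growth and 7.46, 6.97 and 7.40 in starvation, a difference of -0.92. The median difference over the 7 fibroblast markers in starvation was -0.03. The part of these shifts in the results below was not tested.

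Few receptor genes passed the test, and none of them changed by 2-fold or more. In starvation against normal growth 1 of 31 members passed the test (THRB, lower), which is 3.23% beside 0.228% of all genes. No member was higher beside 0.0652% of all genes, and 1 was lower beside 0.163%. In metformin against starvation 3 of 31 members (9.68%) passed beside 6.03% of all genes, 2 of them higher (PPARA and PPARG; all genes, 3.14%) and 1 lower (NR5A1; all genes, 2.89%). In metformin against normal growth 6 of 31 (19.4%) passed beside 12.5% of all genes, with 3 higher (RORA, PPARA and PPARG; all genes, 6.15%) and 3 lower (NR5A1, RORB and THRB; all genes, 6.36%). A gene passed the test at an adjusted p under 0.05 in the moderated test of limma, with p values adjusted over all probe sets by the Benjamini-Hochberg method. Any 2 of the 3 comparisons share arrays and are not independent of each other. The median difference over the members was 0.02, 0.03 and -0.0045 on the log2 scale, beside -0.00072, -0.03 and -0.02 over all genes.

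**Figure D1:**
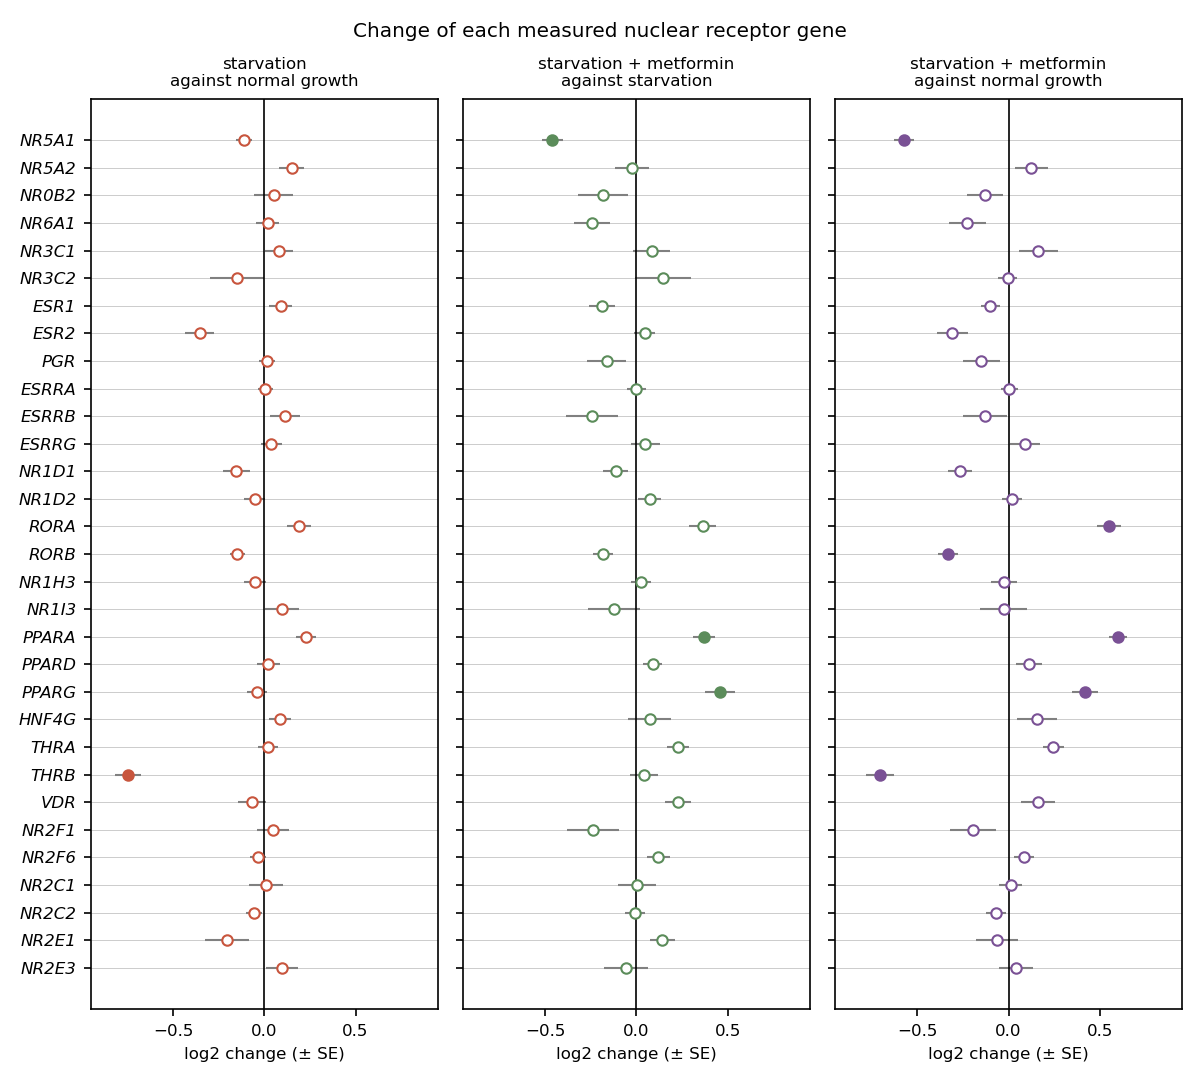
Log2 difference (x axis, ± SE) of each of the 31 measured nuclear receptor genes (y axis) in the 3 comparisons, with filled points for adjusted p under 0.05 and open points for the rest. THRB is the only filled point in starvation against normal growth. NR5A1, PPARA and PPARG are filled in both comparisons with metformin, and THRB, RORA and RORB also in metformin against normal growth.

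Most differences were small. The difference was under 0.25 in size for 29 of 31 members in starvation against normal growth, for 27 in metformin against starvation and for 23 in metformin against normal growth. Groups of 3 arrays did not overlap for 6 members (19.4%) in the first comparison beside 16.5% of all genes, for 12 (38.7%) in the second beside 30.9%, and for 13 (41.9%) in the third beside 35.8%. For a single gene an exact two-sided permutation test of 3 arrays against 3 cannot give a p below 0.1. Below the median of every array were 8 members, namely NR5A2, NR0B2, ESRRB, NR1H3, NR1I3, PPARG, HNF4G and NR2E3, so their differences rest on dim probe sets. NR3C1, ESRRA, NR1H3, NR1I3, HNF4G, NR2F1 and NR2E1 held identical values on arrays of the same group. Their spread is thus an uncertain measure of error.

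**Figure D2:**
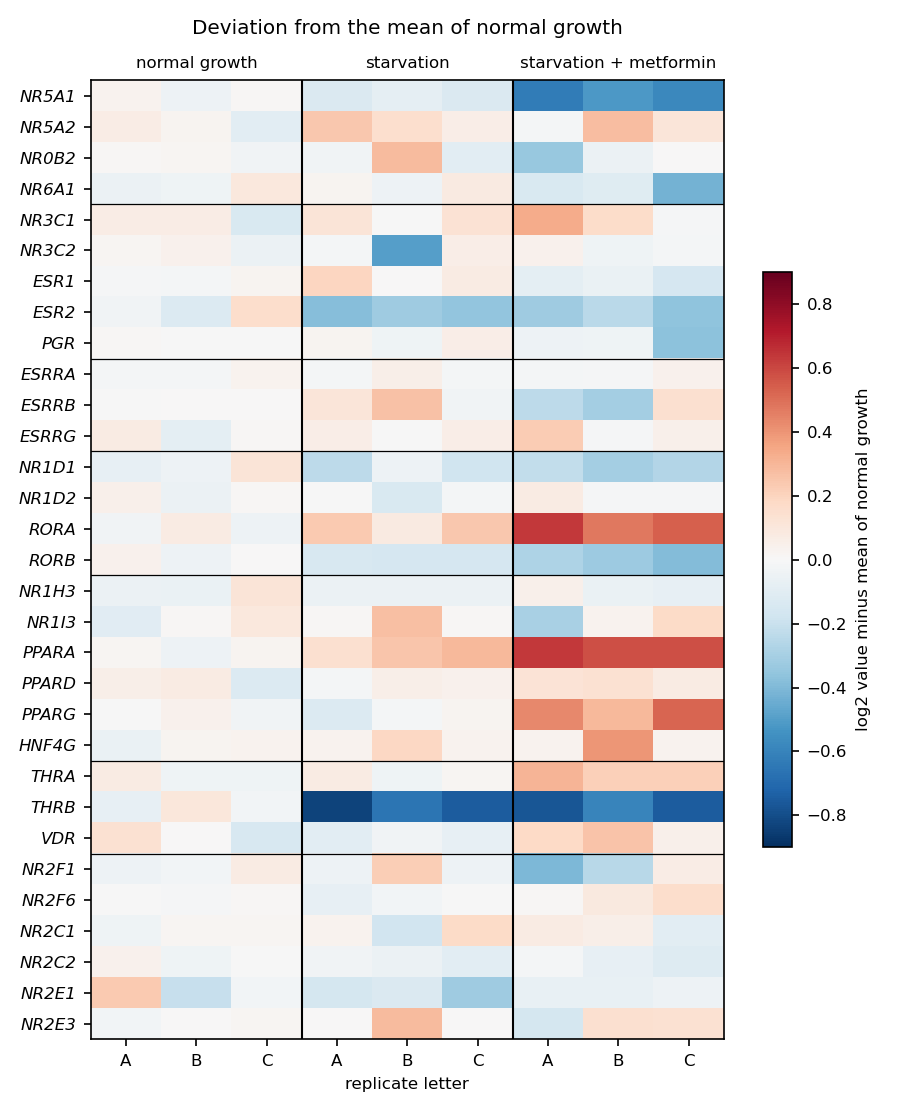
Deviation of each array from the mean of the 3 normal growth arrays (colour, log2 scale) for the 31 receptor genes (rows, grouped by class) on the 9 arrays (columns). THRB is low in all starved and metformin arrays, and NR5A1 low and PPARA, PPARG and RORA high on the 3 metformin arrays.

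NR5A1, the orphan receptor that serves as master regulator of adrenal steroid synthesis, was the only member called lower in metformin against starvation. Its values on arrays A, B and C were 10.93, 10.85 and 10.905 in normal growth, 10.77, 10.81 and 10.77 in starvation, and 10.27, 10.38 and 10.32 with metformin. The 3 groups did not overlap, and the step to metformin was wider than the step to starvation. NR5A1 fell by 0.46 in metformin against starvation (1.38-fold, SE 0.056, limma adjusted p = 0.020) and by 0.57 against normal growth (1.49-fold, SE 0.054, adjusted p = 0.0062). In starvation against normal growth its difference was -0.11 (95% interval -0.22 to -0.0062, adjusted p = 0.59). The call against starvation was lost when any of the 3 starvation arrays or metformin replicate A was left out (adjusted p = 0.107, 0.0664, 0.111 and 0.0704 in that order), and held without metformin replicate B or C. The call against normal growth held without any 1 array (adjusted p from 0.016 to 0.043).

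Its relatives in the orphan class showed no call. NR5A2, the liver receptor homolog with the same DNA motif, differed by 0.15, -0.025 and 0.13 in starvation against normal growth, metformin against starvation and metformin against normal growth, an order kept for triplets below. NR0B2, a corepressor-like receptor without a DNA-binding domain, differed by 0.05, -0.18 and -0.13. NR6A1, the germ cell nuclear factor, gave 6.72, 6.65 and 6.78 on the starved arrays and 6.56, 6.59 and 6.27 with metformin, groups that did not overlap with metformin replicate C lowest. Its difference of -0.24 did not pass (95% interval -0.49 to 0.00025, adjusted p = 0.25).

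**Figure D3:**
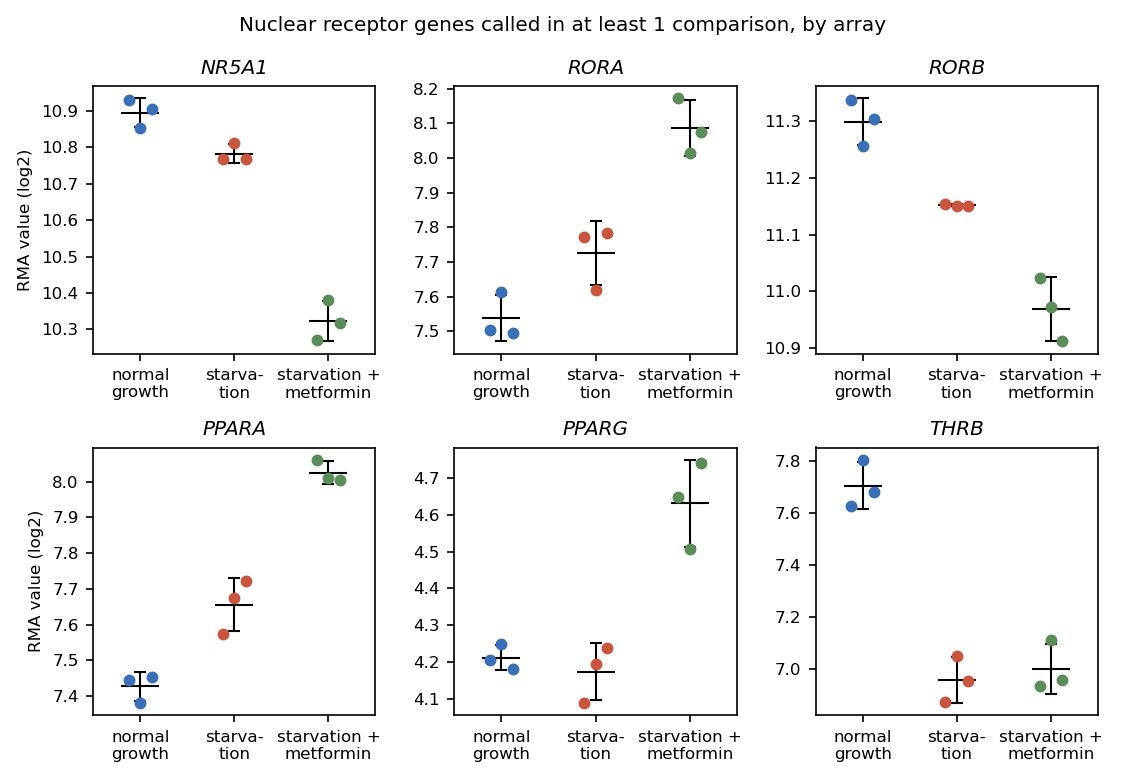
Deposited log2 RMA value (y axis, a separate range for each gene and not starting at 0) on each array for the 6 receptor genes that passed the test in at least 1 comparison, with the group mean and SD as bars. PPARG lies between 4.09 and 4.25 on the 6 arrays without metformin and between 4.51 and 4.74 on the 3 with it.

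Of the 12 genes listed as targets of steroidogenic factor 1, 1 fell in starvation, 1 rose and 1 fell in metformin against starvation, and 1 rose and 3 fell in metformin against normal growth. Beside the called counts of this and every later list stand 0.228%, 6.03% and 12.5% of all genes called in the 3 comparisons. The lists are short, and a count near those shares is no result about a list. HSD3B2, which makes progesterone and androstenedione from their precursors, was 8.98, 9.11 and 9.18 in normal growth, 6.93, 7.17 and 7.20 in starvation, and 5.42, 6.02 and 5.86 with metformin. It fell in each comparison, with differences of -1.99 (adjusted p = 0.0065), -1.33 (adjusted p = 0.021) and -3.32 (adjusted p = 0.0022). MC2R, the corticotropin receptor, rose where NR5A1 fell, by 1.02 against starvation (adjusted p = 0.039) and by 1.20 against normal growth (adjusted p = 0.020). MC2R was 5.32, 4.95 and 5.13 in normal growth, 5.38, 5.32 and 5.26 in starvation, and 6.27, 6.72 and 6.02 with metformin. Every array except metformin replicates A and B was below its median, so this probe set was dim on most arrays. INHA, the inhibin alpha subunit, fell by 0.55 and SCARB1, the receptor that takes up cholesterol from high density lipoprotein, fell by 0.31 in metformin against normal growth (adjusted p = 0.025 and 0.029). The median over the 12 genes was -0.06, -0.04 and -0.17. At an unadjusted p under 0.05 in limma, 1 gene was higher and 5 lower in starvation, 2 higher and 4 lower in metformin against starvation, and 2 higher and 6 lower in metformin against normal growth. Of all 18417 genes, 758 were higher and 1062 lower in starvation at that threshold. In the other 2 comparisons 2268 were higher and 2085 lower, and 2490 higher and 2765 lower. In starvation 5 of 11 glucocorticoid receptor targets and 5 of 10 LXR targets were also lower at that threshold. STAR, which carries cholesterol into the mitochondrion, lay lower on the starved arrays than in normal growth, without overlap, by a difference of -0.45 (95% interval -0.58 to -0.33, adjusted p = 0.058), and differed by 0.45 in metformin against starvation (adjusted p = 0.065). When 1 array was left out, the count of genes that fell ran from 0 to 1, 0 to 1 and 1 to 3 in the 3 comparisons, and MC2R was lost in both without any 1 array of the reference group or metformin replicate A. After the shift to a common median MC2R did not pass against starvation.

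THRB, the beta receptor for thyroid hormone, was the member that starvation lowered. It read 7.63, 7.80 and 7.68 in normal growth, 6.87, 7.05 and 6.95 in starvation, and 6.93, 7.11 and 6.96 with metformin, with replicate B the highest in every group. Normal growth lay above both other groups, which overlapped each other. THRB fell by 0.75 in starvation against normal growth (1.68-fold, SE 0.071, limma adjusted p = 0.043) and by 0.70 in metformin against normal growth (1.63-fold, SE 0.076, adjusted p = 0.0081). Metformin against starvation gave 0.04 (95% interval -0.15 to 0.23, adjusted p = 0.82). The starvation call was lost whichever of the 6 arrays was left out, with adjusted p from 0.0817 without starvation replicate B to 0.287 without normal growth replicate C. The call against normal growth held without any 1 array (adjusted p from 0.017 to 0.048).

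THRA, the alpha receptor for thyroid hormone, did not follow THRB. Its values were 9.30, 9.19 and 9.19 in normal growth, 9.30, 9.19 and 9.24 in starvation, and 9.53, 9.44 and 9.44 with metformin. The 3 metformin arrays lay above the other 6, yet neither the difference of 0.23 against starvation (95% interval 0.08 to 0.37, adjusted p = 0.10) nor that of 0.25 against normal growth (95% interval 0.10 to 0.39, adjusted p = 0.056) passed. THRA and NR1D1 lie on opposite strands and overlap by 1075 bases in RefSeq, and signal shared between their probe sets was not tested. None of the 6 listed thyroid hormone target genes was called in any comparison, with differences from -0.29 to 0.12 in starvation, -0.07 to 0.29 in metformin against starvation and -0.08 to 0.27 in metformin against normal growth.

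VDR, the vitamin D receptor, read 7.80, 7.87 and 7.82 in starvation and 8.08, 8.16 and 7.94 with metformin. These groups did not overlap, but the difference of 0.23 did not pass (95% interval 0.05 to 0.41, adjusted p = 0.15), and the normal growth arrays spanned 7.75 to 8.03. The 4 listed vitamin D target genes were below the median on every array and none was called, with all differences between -0.42 and 0.03.

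PPARA and PPARG, receptors for fatty acids and their derivatives, were the members called higher in metformin against starvation. PPARA, which activates genes of fatty acid oxidation, was 7.45, 7.38 and 7.45 in normal growth, 7.57, 7.67 and 7.72 in starvation, and 8.06, 8.01 and 8.01 with metformin, so that the 3 groups were stacked without overlap. PPARA rose by 0.37 against starvation (1.29-fold, SE 0.061, limma adjusted p = 0.035) and by 0.60 against normal growth (1.51-fold, SE 0.050, adjusted p = 0.0053). In starvation against normal growth the difference of 0.23 did not pass (95% interval 0.09 to 0.36, adjusted p = 0.30). The call against starvation was lost whichever array was left out (adjusted p from 0.0596 without metformin replicate C to 0.136 without starvation replicate A) and also when all arrays were shifted to a common median (0.34, adjusted p = 0.091). The call against normal growth held without any 1 array (adjusted p from 0.015 to 0.042).

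PPARG, known for its role in adipocyte differentiation, was 4.21, 4.25 and 4.18 in normal growth, 4.09, 4.20 and 4.24 in starvation, and 4.65, 4.51 and 4.74 with metformin. Normal growth and starvation overlapped and the metformin arrays lay above both, although every array was dim for this probe set. PPARG rose by 0.46 against starvation (1.37-fold, SE 0.082, limma adjusted p = 0.042) and by 0.42 against normal growth (1.34-fold, SE 0.072, adjusted p = 0.024), with -0.04 in starvation (95% interval -0.17 to 0.10). Any array left out ended the call against starvation (adjusted p from 0.0543 without metformin replicate B to 0.159 without starvation replicate A), as did the common median (0.43, adjusted p = 0.069). The call against normal growth was lost without any of the normal growth arrays (adjusted p = 0.102, 0.0883 and 0.10 without A, B and C) or metformin replicate A (adjusted p = 0.072).

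PPARD, the most widely expressed isotype, showed differences of 0.02, 0.09 and 0.11. Its metformin arrays, from 7.95 to 8.02, lay above the starved arrays, from 7.86 to 7.93, and this difference did not pass (adjusted p = 0.43). Of 12 measured PPAR target genes none was called in starvation or in metformin against starvation, with ranges from -0.52 to 0.38 and from -0.50 to 0.22. In metformin against normal growth 1 rose and 1 fell, beside 6.15% of all genes higher and 6.36% lower. PDK4, the kinase that restrains pyruvate oxidation, rose by 0.30 (adjusted p = 0.025), and VLDLR, a receptor for triglyceride-rich lipoproteins, fell by 0.55 (adjusted p = 0.013). Both calls were lost without any 1 of the normal growth arrays, and that of PDK4 also without metformin replicate A.

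NR1H3, the oxysterol receptor LXR alpha, was dim and differed by -0.05, 0.03 and -0.03. All 3 starved arrays held the identical value 5.69, as did normal growth replicate A, so its spread in starvation is no measure of error. Of the 10 listed LXR target genes none was called in starvation, 2 fell in metformin against starvation and 4 in metformin against normal growth, and none rose. The median over the list was -0.18, -0.27 and -0.36, beside values near 0 over all genes. SMPDL3A, a phosphodiesterase, had positive differences of 0.16, 0.02 and 0.18, which did not pass (adjusted p = 0.69, 0.92 and 0.27). ABCA1, which exports cholesterol from cells, read 7.12, 6.84 and 6.96 in normal growth, 6.54, 6.39 and 6.60 in starvation, and 5.62, 5.97 and 5.36 with metformin. It fell by 0.86 against starvation (adjusted p = 0.044) and by 1.32 against normal growth (adjusted p = 0.011). SREBF1, which encodes a master activator of fatty acid synthesis, fell by 0.80 against starvation (adjusted p = 0.024) and by 1.23 against normal growth (adjusted p = 0.0058). LPCAT3, which builds polyunsaturated phospholipids, fell by 0.69 and ABCG1, another cholesterol exporter, by 0.56 against normal growth (adjusted p = 0.025 and 0.022). With 1 array left out, 0 to 3 of the 10 fell against starvation and 1 to 5 against normal growth. SREBF1 against normal growth held without any 1 array.

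NR1I3, the constitutive androstane receptor that senses xenobiotics, and HNF4G, a fatty acid-binding factor of the gut, were dim and were not called, with differences of 0.10, -0.12 and -0.03 and of 0.08, 0.07 and 0.15. Of the 8 listed bile acid and xenobiotic target genes, 7 were below the median on every array. CYP3A4, a drug-oxidising cytochrome among those dim genes, fell by 0.32 in metformin against starvation and by 0.54 against normal growth (adjusted p = 0.038 and 0.041). ABCB1, the drug efflux pump, fell by 0.37 against normal growth (adjusted p = 0.039). When 1 array was left out, no gene of this list remained called against starvation and at most 1 did against normal growth.

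**Figure D4:**
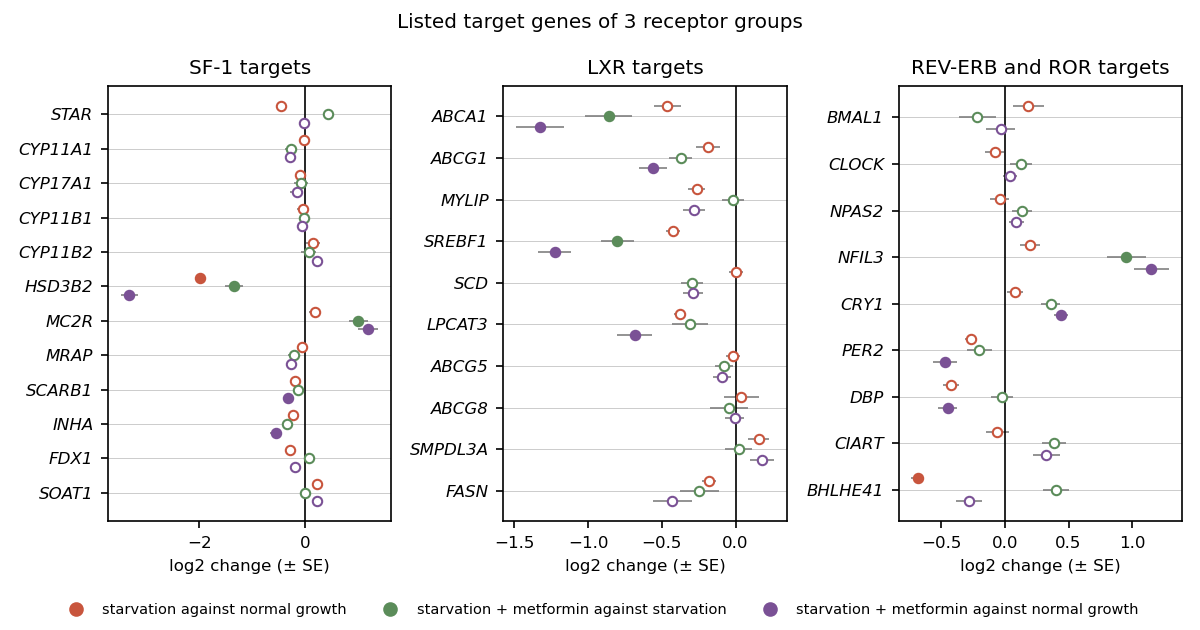
Log2 difference (x axis, ± SE) of the listed target genes (y axis) of steroidogenic factor 1, of LXR and of REV-ERB and ROR in the 3 comparisons, shown by colour, with filled points for adjusted p under 0.05. HSD3B2 falls in all comparisons, and the called LXR targets all lie left of 0.

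RORA and RORB, activators at the clock elements that the REV-ERB receptors repress, moved in opposite directions. RORA read 7.50, 7.61 and 7.49 in normal growth, 7.77, 7.62 and 7.78 in starvation, and 8.17, 8.01 and 8.08 with metformin, each group above the one before, although starvation replicate B lay only just above normal growth. RORA rose by 0.55 in metformin against normal growth (1.46-fold, SE 0.066, limma adjusted p = 0.010). The steps of 0.19 to starvation (95% interval 0.03 to 0.35, adjusted p = 0.52) and 0.36 from there to metformin (95% interval 0.18 to 0.55, adjusted p = 0.059) did not pass on their own. The call was lost without normal growth replicate A or C (adjusted p = 0.0611 and 0.057).

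RORB was 11.34, 11.26 and 11.30 in normal growth, 11.153, 11.151 and 11.150 in starvation, and 11.02, 10.97 and 10.91 with metformin, again in 3 separate tiers but downward. RORB fell by 0.33 in metformin against normal growth (1.26-fold, SE 0.055, limma adjusted p = 0.022). Starvation gave -0.15 (95% interval -0.25 to -0.04, adjusted p = 0.39) and metformin against starvation -0.18 (95% interval -0.32 to -0.05, adjusted p = 0.14). Leaving out normal growth replicate A, B or C or metformin replicate B ended the call (adjusted p = 0.0982, 0.0771, 0.0905 and 0.0564).

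The REV-ERB receptors NR1D1 and NR1D2, heme-binding repressors of the clock, were not called. NR1D1 was 8.42, 8.45 and 8.61 in normal growth, 8.26, 8.45 and 8.32 in starvation, and 8.27, 8.19 and 8.23 with metformin, and the difference of -0.27 between the last and the first did not pass (95% interval -0.43 to -0.10, adjusted p = 0.069), but did after the shift to a common median. NR1D2 differed by -0.05, 0.07 and 0.02. Of the 9 listed REV-ERB and ROR target genes, 1 fell in starvation, 1 rose in metformin against starvation, and 2 rose and 2 fell in metformin against normal growth. BHLHE41, a repressor within the clock, fell by 0.69 in starvation (adjusted p = 0.020), a call that no fit with 1 array left out retained. NFIL3, a repressor of clock output genes, rose by 0.95 against starvation and by 1.15 against normal growth (adjusted p = 0.032 and 0.011). CRY1, a core repressor, rose by 0.44 against normal growth, whereas PER2, its partner, fell by 0.47 and DBP, an activator of output genes, by 0.45 (adjusted p = 0.011, 0.038 and 0.021). Each of these 4 calls against normal growth was lost without any 1 of the normal growth arrays, and that of PER2 also without metformin replicate B or C. Against starvation the NFIL3 call was lost without any 1 of the starved arrays or metformin replicate A or C. BMAL1, the activator whose gene both receptor families control, was not called, with 0.18, -0.22 and -0.03.

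The steroid hormone receptors were not called in any comparison. NR3C1, the glucocorticoid receptor, differed by 0.08, 0.08 and 0.16. NR3C2, the mineralocorticoid receptor, differed by -0.15, 0.15 and -0.0045, where starvation replicate B alone was low at 6.01 beside 6.49 and 6.57 on the other starved arrays. PGR, the progesterone receptor, differed by 0.02, -0.16 and -0.15. ESR1, the estrogen receptor alpha, gave 6.67, 6.47 and 6.54 in starvation and 6.38, 6.41 and 6.32 with metformin, without overlap, and its difference of -0.19 did not pass (95% interval -0.36 to -0.02, adjusted p = 0.21). A second and dimmer ESR1 probe set, with a mean of 3.84, gave 0.17, -0.11 and 0.06.

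ESR2, the estrogen receptor beta, had the second largest difference of any member in starvation. It read 7.25, 7.16 and 7.44 in normal growth, 6.90, 6.96 and 6.93 in starvation, and 6.96, 7.04 and 6.92 with metformin. Normal growth lay above both other groups, yet the difference of -0.35 in starvation (95% interval -0.55 to -0.16, adjusted p = 0.26) and that of -0.31 in metformin against normal growth (95% interval -0.52 to -0.10, adjusted p = 0.087) did not pass.

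Of 11 measured glucocorticoid receptor target genes none was called in starvation. For this list and the estrogen list, 6.03% of all genes were called in metformin against starvation and 12.5% in metformin against normal growth. PER1, a clock gene with a glucocorticoid response element, rose by 0.46 in metformin against starvation and by 0.25 against normal growth (adjusted p = 0.030 and 0.045). SGK1, a kinase that raises sodium uptake, fell by 0.47 against normal growth (adjusted p = 0.031). With 1 array left out no glucocorticoid target was called against starvation, and 0 to 1 rose and 0 to 1 fell against normal growth. Of 6 listed estrogen target genes, XBP1, a factor of the unfolded protein response, rose by 0.96 and MYB, a transcription factor of proliferating cells, fell by 0.85 in metformin against normal growth (adjusted p = 0.024 and 0.0051), and the MYB call held without any 1 array, whereas that of XBP1 was lost without any of the normal growth arrays or metformin replicate A or C.

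The estrogen-related receptors, orphan activators of mitochondrial genes, were not called in any comparison. ESRRA differed by 0.0064, -0.0018 and 0.0046, with 95% intervals of -0.10 to 0.11, -0.13 to 0.13 and -0.11 to 0.12. Its value was the identical 8.41 on normal growth replicates A and B, starvation replicates A and C and metformin replicate A. These small differences and their intervals therefore rest in part on tied values. ESRRG differed by 0.04, 0.05 and 0.09, and the dim ESRRB by 0.11, -0.24 (95% interval -0.59 to 0.11) and -0.13. ESRRB was called lower in metformin against normal growth when metformin replicate C was left out. None of the 7 measured mitochondrial target genes was called, with all differences between -0.14 and 0.15.

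The remaining members were the COUP-TF receptors, TR2 and TR4, and the NR2E receptors, orphans known mostly as repressors in development, and none of the 6 was called. NR2F1 differed by 0.05, -0.24 and -0.19, and NR2F6 by -0.03, 0.12 and 0.09. The NR2F6 arrays with metformin, at 9.05, 9.12 and 9.19, lay above the other 6, which ran from 8.96 to 9.05, but the differences did not pass (adjusted p = 0.35 and 0.43). NR2C1 (TR2) differed by 0.0089, 0.0028 and 0.01 and NR2C2 (TR4) by -0.06, -0.01 and -0.07. NR2E1, a factor of neural stem cells, differed by -0.20, 0.14 and -0.06 with normal growth arrays from 6.08 to 6.53, and the dim NR2E3, a photoreceptor factor, by 0.10, -0.06 and 0.04.

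Among 23 measured coregulators, which receptors recruit to activate or repress, none was called in starvation, 1 rose in metformin against starvation, and 2 rose and 1 fell in metformin against normal growth. Of all genes 0.228%, 6.03% and 12.5% were called in these comparisons, so such counts are no result about coregulators as a group. TBL1X, a subunit of the corepressor complex with NCOR and HDAC3, was 7.61, 7.58 and 7.38 in normal growth, 7.80, 7.58 and 7.78 in starvation, and 8.31, 8.30 and 8.32 with metformin. It rose by 0.59 against starvation and by 0.79 against normal growth (adjusted p = 0.021 and 0.0061), and the latter call held without any 1 array. NCOA7, a coactivator of estrogen receptors, rose by 0.44 and TRIM24, a coregulator that binds the retinoid and estrogen receptors, fell by 0.32 against normal growth (adjusted p = 0.021 and 0.027). With 1 array left out, 0 to 1 coregulators rose against starvation, and 1 to 2 rose and 0 to 1 fell against normal growth. Of 8 measured chaperones that fold steroid receptors, only STIP1, which links HSP70 to HSP90, passed, and fell by 0.29 in metformin against starvation and by 0.26 against normal growth (adjusted p = 0.040 and 0.045). Both STIP1 calls were lost whichever array was left out.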

How the data were processed

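RNA of 3 groups of 3 cultures was measured on 9 arrays. The authors deposited log2 values from RMA, which corrects the background, normalizes by quantiles and summarises by median polish. Tools named in the submitters' processing notes were Affymetrix Expression Console, RMA and limma, beside Affymetrix Power Tools in the study's methods, with no version given. The array annotation assigns 1 symbol to 19460 of 33297 probe sets, several to 1754 and none to 12083. Each gene was read from its brightest single-symbol probe set. Each comparison was fitted on its 6 arrays in R 4.3.3 with limma 3.58.1 (lmFit, eBayes) and Benjamini-Hochberg adjustment over all probe sets, and the fit was tested on simulated data. Every measured member is named, and of 12 lists of coregulators, chaperones and target genes (114 of 124 genes measured) up to 4 called genes per comparison are named. BMAL1, STAR, SMPDL3A, EPCAM and FAP were named after their values were seen. The members and lists were chosen with earlier results of these data known. Promoter windows come from RefSeq, and 27 of the 31 members matched. Alternatives were a fit of all 9 arrays, 2 other normalizations, single-gene probe sets alone, probe sets averaged by gene, omission of dim ones (below the 40th percentile), trend and robust options, the methods' t-test, fold thresholds of 1.5 and 2, a replicate block and each array left out. Precision is limited by the number of arrays.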

Additional observations from a re-analysis of the deposited data

How the results depend on the processing

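All 148 repeats of the 10 receptor results and all 568 of the 38 list gene results kept their direction, and 100 and 350 of them stayed under the threshold. The kept direction says little. The fit of all 9 arrays, omission of dim probe sets, single-gene probe sets, trend and robust options, t-test and block use the same group means. Those settings could not change a direction, and the others reuse the same arrays. Members called in starvation, in metformin against starvation and in metformin against normal growth numbered 1, 3 and 6. A fold of at least 1.5 left 1, 0 and 2, and 2-fold left 0, 0 and 0. In metformin against starvation the fit of all 9 arrays gave 5 (all genes, 13.6%), the common median 1 (2.66%), and the trend and robust options 5 (9.73%). RORA was called in both of those fits of 5, with dim probe sets removed (14.5% of genes kept) and with single-gene probe sets (all genes, 10.5%). In metformin against normal growth the fit of all 9 arrays and single-gene probe sets each gave 9, adding THRA, ESR2 and NR1D1 (all genes, 17.5% and 18.3%). Removal of dim probe sets gave 8 of 26 members tested with the same additions, beside 24.3% of the genes kept. The trend and robust options gave 8 with THRA and NR1D1 added (all genes, 16.1%). Quantile normalization again gave 7 with THRA added (14.2%), and the common median 7 with NR1D1 added (10.7%). The methods' t-test gave 0, 1 and 5 (all genes, 0.163%, 2.76% and 6.14%). Leaving out 1 array gave 0 to 0, 0 to 1 and 3 to 7 members (all genes, 0 to 0.0869%, 0 to 3.9% and 1.95% to 13.8%). No gene at all was called against starvation without metformin replicate A or any starvation array. NR5A1 was the only member called in metformin against starvation after the common median or with the methods' t-test. After the common median ABCA1, CYP3A4, TBL1X, STIP1 and MC2R did not pass against starvation, and PER1 did not pass against normal growth. PPARG was removed by the filter on dim probe sets and has no value there. Depth has no counterpart on arrays, and differences of the 8 dim members are the least certain.

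With the letter as a replicate block 0, 0 and 0 members and 0 of all genes were called. Labels and methods leave unsaid whether a letter stands for 1 experiment. Deviations of arrays with the same letter correlated at 0.0903, 0.134 and 0.024 between normal growth and starvation. They correlated at 0.294, -0.137 and -0.249 between starvation and metformin, and at -0.0884, 0.00978 and -0.164 between normal growth and metformin. For arrays with different letters the values ran from -0.11 to 0.0395, from -0.383 to 0.44 and from -0.108 to 0.182 in the same order. These values do not settle whether the letters are pairs. The letters were left out of the main fit, and every call rests on that choice.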
